A study of Mus musculus with 4 samples.

Results

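The Iroquois B locus on mouse chromosome 8 holds the homeobox genes Irx3, Irx5 and Irx6, with the neighbouring genes Fto and Rpgrip1l. Accessible chromatin in this locus was described from ATAC-seq peaks, the regions where the transposase Tn5 cuts open DNA. The cells were hair follicle stem cells (HFSC) from mouse skin, sorted for CD34 and a marker written as CD45f in the labels, with Ly-6A/E-positive cells left out. Of the 4 samples, 2 carried the label Irx5KO and 2 the label WT. The labels give neither the Irx5 allele, the strain nor the age of the mice, and do not say whether the 2 samples of a genotype came from separate animals. The deposited data were 1 peak list per genotype, pooled over its 2 samples, so no value had a spread between replicates and no test between genotypes was possible. A difference between library preparations and an effect of genotype cannot be told apart here. Intervals given in brackets are 95% Wilson intervals and cover counting error only.

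The members were all peaks that overlapped the body of 1 of the 5 genes, the 50 kb on each side of it, or the span between Irx3 and Irx6. They formed 2 stretches of mm10, from 91167030 to 91718433 and from 91748511 to 92730956, with 1.53 Mb in all. The Irx5KO list held 175 of its 484992 peaks there, and the WT list held 130 of its 498061 peaks. A peak was called shared when at least 1 bp of it overlapped a peak of the other list, and genotype-only otherwise. Genotype-only means listed in 1 pooled list and not in the other, which is not a measured gain or loss of accessibility. Each peak's score was set by the authors. It served here to rank the peaks of 1 list from the lowest to the highest score. The rank is a percent of the peaks of that list, and peaks with tied scores took their mean rank.

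Iroquois genes encode homeodomain transcription factors of the TALE class and lie in 2 clusters of 3 genes in mammals. In the B cluster Irx3 and Irx5 are often expressed in the same tissues, and their distal regulatory regions spread over the wide gene-poor intervals between them and into the introns of Fto. Fto encodes an RNA demethylase of the AlkB family, and variants in its introns that are associated with human obesity have been linked to IRX3 and IRX5. Rpgrip1l encodes a protein of the transition zone at the base of the primary cilium, a structure needed for hedgehog signalling. Crnde and Irx3os are long noncoding RNA genes beside Irx5 and Irx3. HFSC are the quiescent cells of the follicle bulge from which hair regrows.

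Promoter sequences are shown for 3 gene starts of the locus. A promoter window has 300 bases, from 250 bases before to 50 bases after the start (RefSeq, GRCm38.p6, the assembly of mm10). Among the starts of the locus with a window at hand, both lists held a peak over all 300 bases at 4. The window of the Irx3os start was also at hand, and 0 of its bases lay under a peak in either list. The share of all promoter windows under a peak is not given here. No window was at hand for Irx5 and Irx6, so their starts were not assessed in this way. The 3 shown are the Rpgrip1l start, the Irx3 start, and the Crnde start on the side of Irx5. The other of the 4 is the Fto start, which faces that of Rpgrip1l. In Irx3 and Crnde the capitals mark CG dinucleotides. In Rpgrip1l they mark matches to the core of the ZNF143 motif, a 14-base run in which bases 6 and 7 were free, searched on both strands and chosen after the sequences were seen.
Rpgrip1l promoter, minus strand, chr8:91313173-91313472: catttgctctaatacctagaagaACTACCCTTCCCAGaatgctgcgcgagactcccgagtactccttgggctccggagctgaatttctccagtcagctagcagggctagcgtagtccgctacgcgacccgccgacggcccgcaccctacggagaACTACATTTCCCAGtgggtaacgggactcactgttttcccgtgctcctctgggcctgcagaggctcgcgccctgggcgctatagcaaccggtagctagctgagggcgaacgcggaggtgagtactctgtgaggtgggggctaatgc
Irx3 promoter, minus strand, chr8:91801605-91801904: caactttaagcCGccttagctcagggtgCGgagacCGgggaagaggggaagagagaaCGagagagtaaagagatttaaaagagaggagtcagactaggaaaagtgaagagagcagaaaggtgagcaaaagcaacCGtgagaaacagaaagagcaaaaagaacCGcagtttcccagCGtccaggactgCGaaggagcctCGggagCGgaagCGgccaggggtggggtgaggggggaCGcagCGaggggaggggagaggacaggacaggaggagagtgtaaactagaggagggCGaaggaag
Crnde promoter, minus strand, chr8:92356071-92356370: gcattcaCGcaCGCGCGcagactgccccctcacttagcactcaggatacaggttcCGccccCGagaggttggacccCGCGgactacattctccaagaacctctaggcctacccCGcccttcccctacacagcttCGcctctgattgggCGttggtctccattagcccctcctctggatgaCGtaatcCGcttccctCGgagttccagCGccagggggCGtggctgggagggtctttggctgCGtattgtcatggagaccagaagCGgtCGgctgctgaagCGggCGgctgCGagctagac
The Rpgrip1l window held the core as ACTACCCTTCCCAG at bases 24 to 37 and as ACTACATTTCCCAG at bases 155 to 168, and the Fto window, which shares 198 bases with it, held the same pair on its other strand. Of 32851 promoter windows searched, 0.584% held at least 1 match and 8 windows held 2 or more, the overlapping Fto and Rpgrip1l windows among them. The windows held 22 CG dinucleotides in Rpgrip1l, 23 in Fto, 14 in Irx3 and 22 in Crnde, above the median of 7 over all promoter windows. As many were held by 23.1% of promoter windows for Rpgrip1l and Crnde, 21.5% for Fto and 36.3% for Irx3. The Irx3os window held 6, below that median, and 56.4% of promoter windows held as many. The counts of Fto and Rpgrip1l are not separate, since their windows share 198 bases. The motif ACANNTGT, known as a binding site of Iroquois proteins, was not found in the windows of Irx3, Fto, Rpgrip1l, Crnde and Irx3os. Of all windows, 7.38% held it. TATAAA was not found in them either (13.6% of all windows). CCAAT was found once, in Crnde (37.4% of all windows). CANNTG, the E-box, was found at base 193 of Fto and base 1 of Rpgrip1l (72.3% of all windows). These are the same bases, in the part that both windows share. A further E-box lay at base 287 of Irx3os. Each motif was searched on both strands, CANNTG can overlap ACANNTGT, and a match is a run of letters and not a shown binding site. The promoters of Irx5 and Irx6 are named only.

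At the ends of the 5 genes the lists had much in common. Each of the 5 members had a peak within 1000 bp of a gene end in Irx5KO and in WT, as did 75.2% of 21887 coding genes. Over all coding genes, 6.07% had such a peak in the Irx5KO list alone and 3.99% in the WT list alone, and no member was among these. The end of Irx3 at which transcription starts lay under 1 peak in each list, 1310 bp wide in Irx5KO (91801091 to 91802400, rank 69.7%) and 1340 bp wide in WT (91801041 to 91802380, rank 61.7%). A smaller peak at the other end of Irx3 was also shared, with rank 28.6% in Irx5KO and 28.1% in WT. The facing starts of Fto and Rpgrip1l are 76 bp apart and lay under a single peak in each list, 830 bp wide in Irx5KO (91313051 to 91313880, rank 86.4%) and 790 bp wide in WT (91313031 to 91313820, rank 77.9%). The opposite ends of Fto and Rpgrip1l had no peak within 1000 bp in either list. When only the better-scored 50% of each list was kept, Irx3, Irx5, Fto and Rpgrip1l had such a peak in both genotypes and Irx6 had one in neither. The share of all coding genes at this threshold is not given here, so this count has no background.

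At Irx5, the gene named in the genotype (92357796 to 92361456), the lists shared every WT peak within 10 kb and differed in 8 low-scored Irx5KO peaks. The lower end of Irx5 lay under a peak of 1310 bp in Irx5KO (92356871 to 92358180, rank 83.7%) and of 780 bp in WT (92357211 to 92357990, rank 60.8%). The Irx5KO peak contained the WT peak on both sides. The start of Crnde, 1.68 kb below Irx5, lay under a peak of 1100 bp in Irx5KO (rank 89.8%) and of 950 bp in WT (rank 73.0%). The Crnde start and the lower end of Irx5 thus carried a pair of neighbouring peaks in both genotypes.

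Within the body of Irx5 a further peak was shared, 310 bp wide in Irx5KO (92360011 to 92360320, rank 14.8%) and 210 bp wide in WT (92360031 to 92360240, rank 9.37%). Another pair of peaks in the body was listed in Irx5KO only, at 92359081 to 92359290 (rank 2.66%) and at 92360391 to 92360700 (rank 6.08%). The Irx5KO list thus held 4 peaks in the gene body and the WT list 2. Which bases the Irx5 allele removes is not given in the labels, so these peaks do not check the genotype.

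**Figure D1:**
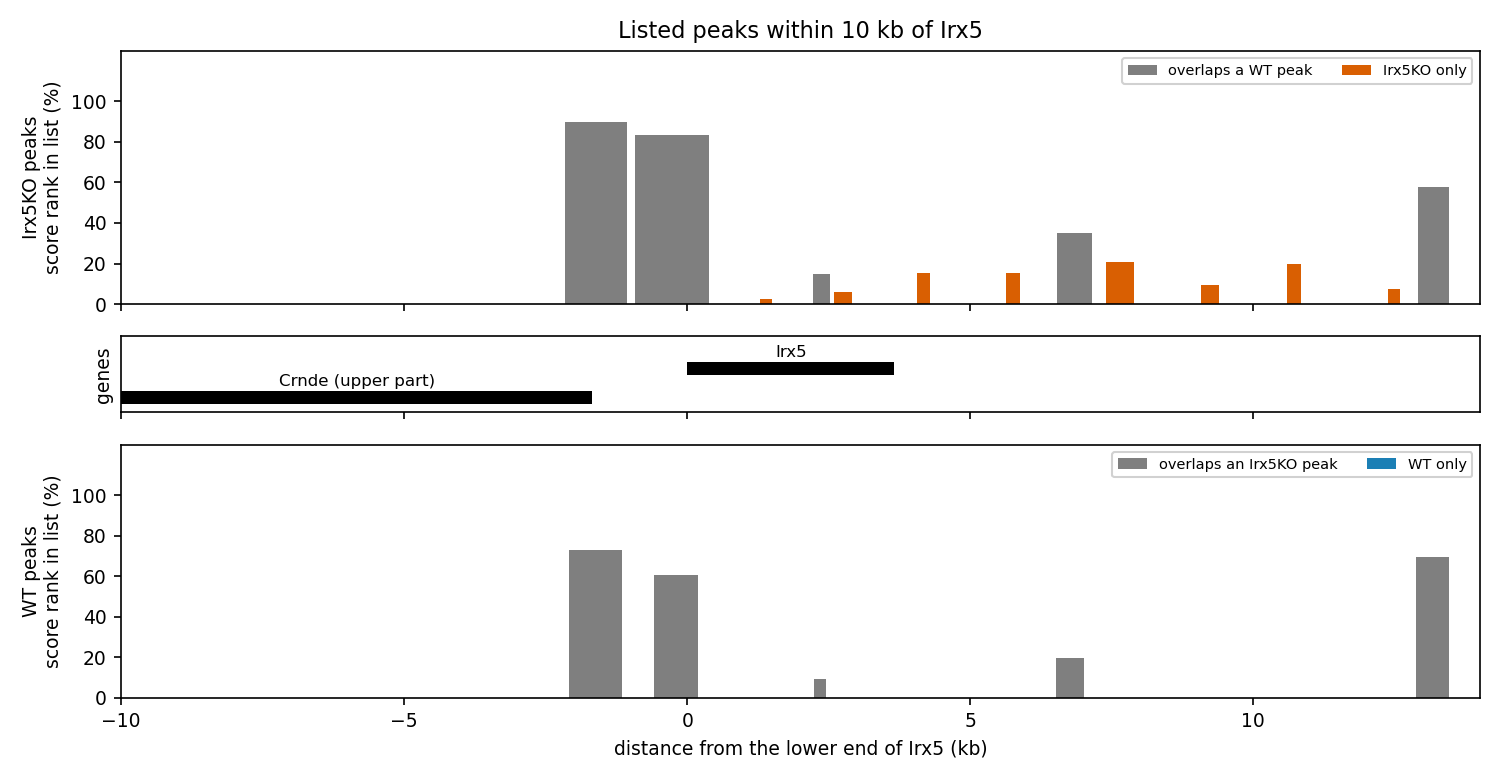
Listed peaks within 10 kb of Irx5, with distance from the lower end of Irx5 in kb on the x axis and the score rank within each list in percent on the y axis, where bars span the peak width. The 8 Irx5KO-only peaks lie in or above the gene with ranks up to 20.7%, and all 5 WT peaks overlap an Irx5KO peak.

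Above the gene, from 92361861 to 92370380, lay 6 of the 8 Irx5KO-only peaks of these 10 kb flanks, between 210 and 480 bp wide and with ranks from 7.26% to 20.7%. Among them lay 1 shared peak (rank 35.2% in Irx5KO, 19.8% in WT), and another followed at 92370701 to 92371250 in Irx5KO (rank 57.8%) and at 92370671 to 92371260 in WT (rank 69.6%). Over the whole Irx5 window of 50 kb on each side, the Irx5KO list held 23 peaks, of which 11 were Irx5KO-only, and the WT list held 15 peaks, of which 3 were WT-only. The Irx5KO-only peaks were 47.8% (29.2 to 67.0) of the Irx5KO peaks there, against 21.8% of all Irx5KO peaks. The WT-only peaks were 20% (7.05 to 45.2) of the WT peaks, against 26.6% of all WT peaks. None of the 11 Irx5KO-only peaks and 1 of the 3 WT-only peaks ranked in the upper 50% of its list, so the direction rests on low-scored peaks.

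Irx3, which encodes an Iroquois factor often expressed with Irx5, had 13 Irx5KO peaks and 9 WT peaks in its window, with 6 Irx5KO-only and 2 WT-only. The share was 46.2% (23.2 to 70.9) in Irx5KO, against 21.8% over the series, and 22.2% (6.32 to 54.7) in WT, against 26.6%. The highest-scored peaks of this window were shared. A peak at 91774171 to 91774390 had rank 83.4% in Irx5KO, and its WT partner at 91774181 to 91774410, the highest of the window in WT, had rank 88.4%. The highest in Irx5KO, at 91809731 to 91810290, had rank 92.8%, and its WT partner at 91809781 to 91810260 had rank 54.4%. The next, at 91820961 to 91821630 in Irx5KO, had rank 88.2%, and its WT partner at 91821211 to 91821750 had rank 74.4%. The peaks at 91809731 and 91820961 lie in Irx3os. Of the 6 Irx5KO-only peaks, 5 lay between 91840731 and 91848240, also in Irx3os, with ranks from 0.391% to 37.7%. The WT-only peaks at 91824431 and 91829361 had ranks of 53.8% and 53.2%.

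Irx6, the third gene of the cluster, had the window with the least in common. It held 9 Irx5KO peaks, of which 6 were Irx5KO-only, and 8 WT peaks, of which 5 were WT-only. The share of Irx5KO-only among Irx5KO peaks was 66.7% (35.4 to 87.9), against 21.8% over the series, and that of WT-only among WT peaks was 62.5% (30.6 to 86.3), against 26.6%. Peaks with the low scores of this window were often genotype-only in the whole series, at rates of 49.7% in Irx5KO and 48.4% in WT, which give 4.47 and 3.87 peaks where 6 and 5 were listed. The shared peak below the start had low ranks, 34.8% in Irx5KO (92673371 to 92673930) and 9.96% in WT (92673291 to 92673740). The peaks inside the gene body did not match, with 2 Irx5KO-only peaks (ranks 3.49% and 7.71%) and 1 WT-only peak (rank 6.69%). From 92620341 to 92643620, partly below the window, lay 6 Irx5KO and 4 WT peaks with no overlap, and the Irx5KO-only peak at 92641991 lay 110 bp from a WT-only peak. A peak with rank 96.9% in Irx5KO and 98.5% in WT, the second highest of the locus in both lists, lay over Gapdh-ps16, annotated as a pseudogene of the glycolysis gene Gapdh, where reads from other copies of Gapdh could be placed. How the submitters treated reads that map to several places is not given in the sources used here.

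**Figure D2:**
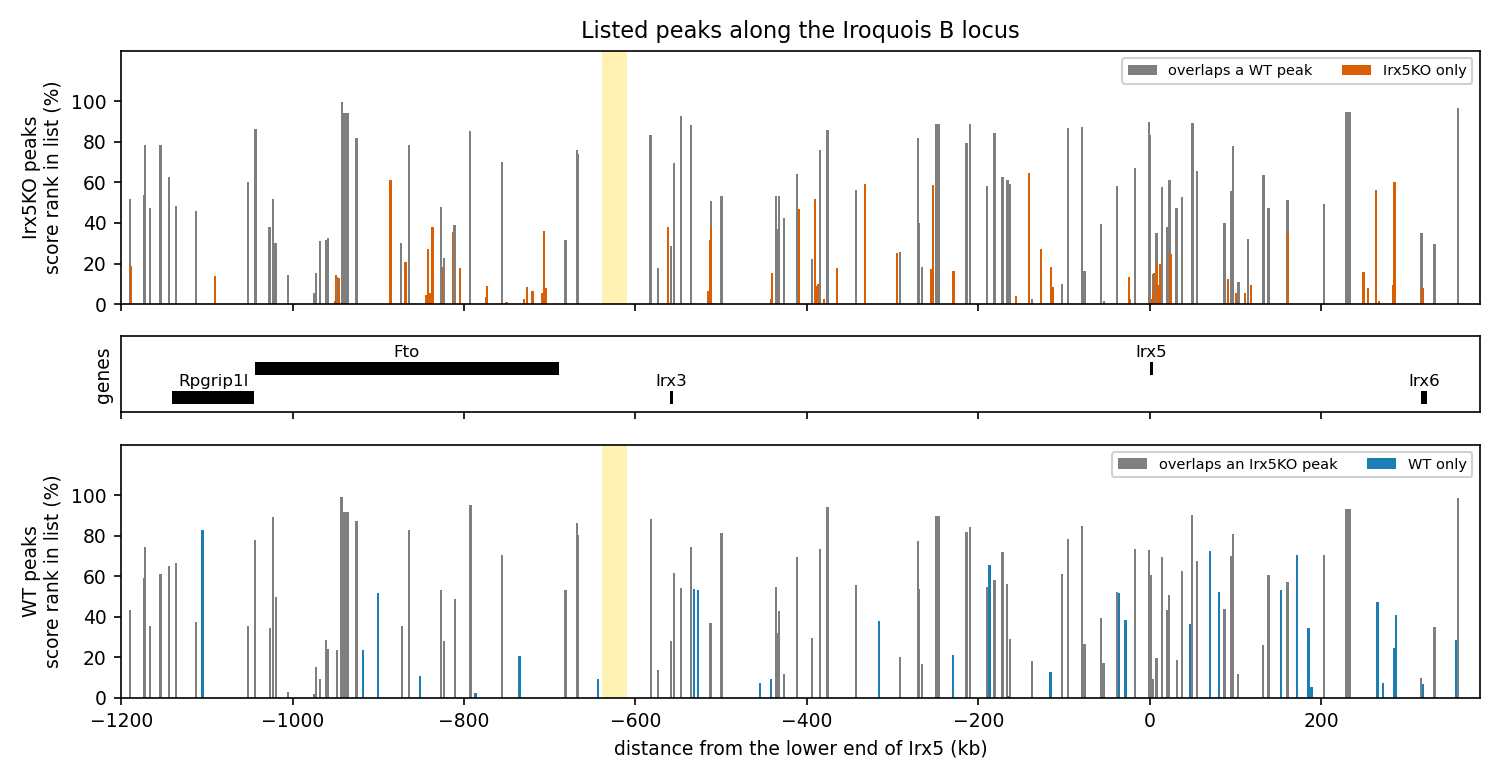
All peaks of the locus, with distance from the lower end of Irx5 in kb on the x axis and the score rank within each list in percent on the y axis, and the 5 genes between the lists. Bars stand at the peak positions, and the yellow band marks the 30.1 kb between the Fto and Irx3 windows that belongs to neither. Orange Irx5KO-only bars stand mostly at low ranks (median 9.92%), and 8 of them lie within 10 kb of Irx5.

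Fto held the most peaks that were not shared. Its window of 455 kb held 49 Irx5KO peaks, of which 24 were Irx5KO-only, and 32 WT peaks, of which 7 were WT-only. The share was 49.0% (35.6 to 62.5) in Irx5KO, where the series had 21.8%. It was 21.9% (11.02 to 38.8) in WT, where the series had 26.6%. Inside the gene body, which is almost wholly intron by background knowledge, 23 Irx5KO-only and 6 WT-only peaks were listed, and the gene table does not separate exons from introns. Split into 3 stretches of 118 kb each, the gene body held 4 Irx5KO-only of 17 Irx5KO peaks and 1 WT-only of 14 WT peaks in the lowest stretch, next to its start. The middle stretch held 9 of 15 and 3 of 9, and the stretch farthest from the start held 10 of 12 and 2 of 4. The Irx5KO-only peaks of this last stretch had ranks from 1.06% to 36.0%. In the lowest score decile 77.3% of all Irx5KO peaks were Irx5KO-only. The part of the scores in the counts of the 3 stretches was not tested. The longest interval of the locus without a WT peak ran from 91621491 to 91674830, over 53.3 kb, and held 6 Irx5KO peaks. These 6 peaks were 200 to 400 bp wide with ranks from 2.33% to 36.0%. The longest interval without an Irx5KO peak was longer, at 58.0 kb (91857181 to 91915220, between Irx3 and Irx5), and held 2 WT-only peaks.

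The highest-scored peak of the locus lay in Fto in both lists, at 91413731 to 91415270 with rank 99.6% in Irx5KO, and at 91413681 to 91415200 with rank 99.3% in WT. The widest lay close above it, at 91417011 to 91423730 in Irx5KO and at 91417031 to 91423740 in WT, with borders 20 and 10 bp apart. Its deposited point sources were 5750 bp apart, against a median of 55 bp over the overlapping pairs of the locus. A peak of like width between Irx5 and Irx6 had rank 94.6% in Irx5KO (92585551 to 92592020) and 93.3% in WT (92585531 to 92592040). In Fto, a peak at 91563771 to 91564970 had rank 85.3% in Irx5KO, and its WT partner at 91564001 to 91564890 had rank 95.05%. The highest-scored Irx5KO-only peak of Fto, at 91470681 to 91471050, had rank 61.2% and lay 12.7 kb from the nearest WT peak. It was the only Irx5KO-only peak of the Fto window in the upper 50% of its list, where 1 WT-only peak also ranked.

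Rpgrip1l had the fewest genotype-only peaks. Its window held 17 Irx5KO peaks with 2 Irx5KO-only, a share of 11.8% (3.29 to 34.3), and 16 WT peaks with 1 WT-only, a share of 6.25% (1.11 to 28.3). Both shares were below the 21.8% and 26.6% of all peaks, with intervals that include these values. The 1 WT-only peak, at 91251511 to 91251770 inside the gene, was the highest-scored genotype-only peak of the locus, with rank 82.8%, and the nearest Irx5KO peak was 7.41 kb away. The windows overlap, so that the peak at the facing starts of Rpgrip1l and Fto counts in both.

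**Figure D3:**
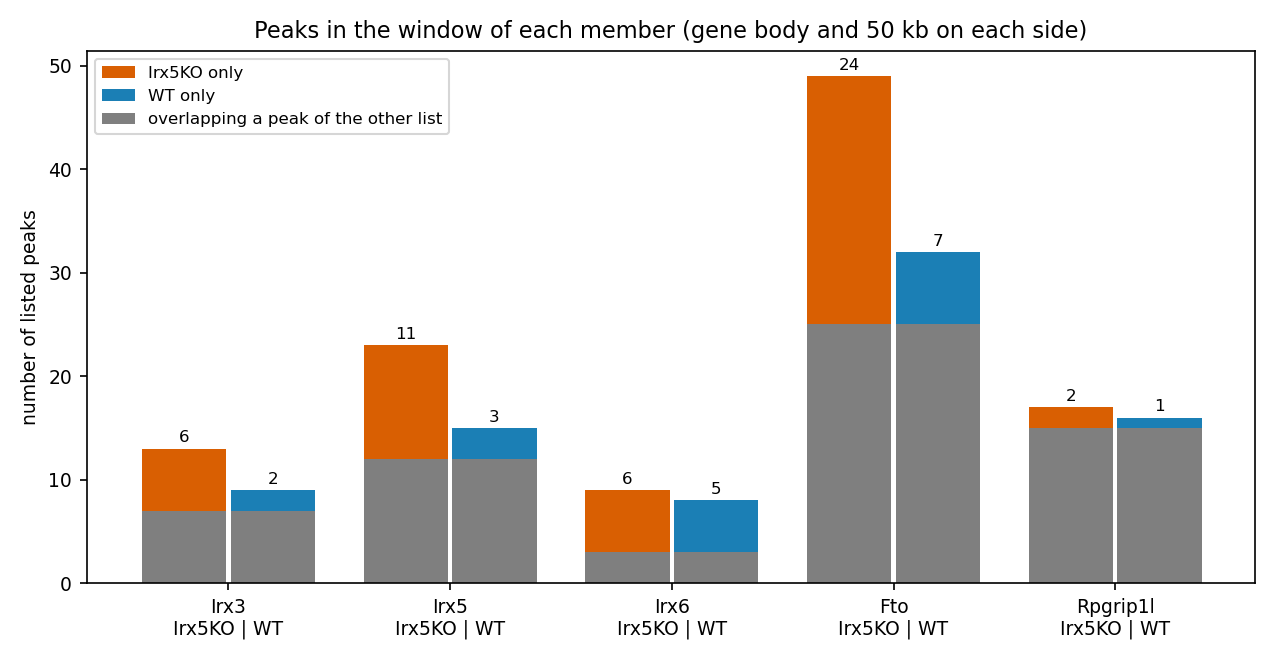
Number of listed peaks in the window of each gene (gene body and 50 kb on each side), Irx5KO left and WT right, split into shared and genotype-only peaks with the genotype-only number above each bar. In all 5 windows the Irx5KO bar has more genotype-only peaks than the WT bar, by 17 at Fto and by 1 at Irx6 and Rpgrip1l.

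The span between Irx3 and Irx6, 873 kb long, held no other coding gene. It held 108 Irx5KO peaks, of which 49 were Irx5KO-only, and 81 WT peaks, of which 23 were WT-only. The shares were 45.4% (36.3 to 54.8) in Irx5KO, against 21.8% over the series, and 28.4% (19.7 to 39.0) in WT, near the 26.6% of the series. The interval from Irx3 to Irx5 held 65 Irx5KO peaks with 27 Irx5KO-only, and 49 WT peaks with 11 WT-only. The interval from Irx5 to Irx6 held 40 Irx5KO peaks with 20 Irx5KO-only, and 31 WT peaks with 12 WT-only. Cut into 18 bins of 50 kb, the last of them shorter, Irx5KO-only peaks outnumbered WT-only peaks in 9 bins, WT-only peaks were more in 4 and the numbers were equal in 5. The bin around Irx5 had the most peaks, 18 in Irx5KO and 9 in WT, with 9 Irx5KO-only and 0 WT-only. In the bin from 92601655 to 92651654, below Irx6, all 8 Irx5KO and all 4 WT peaks were genotype-only.

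The 3 highest-scored genotype-only peaks of each list lay at least 31.9 kb from the nearest end of a member. In Irx5KO they were the peak of Fto given above, a peak at 92215681 to 92216140 (rank 64.5%), which lies 142 kb from the nearest member end, and the peak at 92641991 to 92642410 (rank 60.1%). In WT they were the peak of Rpgrip1l, and peaks at 92426601 to 92426890 (rank 72.7%) and at 92528351 to 92528560 (rank 70.6%), 65.1 and 146 kb from the nearest member end.

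Over the whole locus, 77 of 175 Irx5KO peaks were Irx5KO-only, or 44.0% (36.9 to 51.4) against 21.8% of all Irx5KO peaks. Of the WT peaks 33 of 130 were WT-only, or 25.4% (18.7 to 33.5) against 26.6% of all WT peaks. Irx5KO-only peaks made up 70.0% (60.9 to 77.8) of the genotype-only peaks, against 44.4% over the whole series. All 5 windows had more Irx5KO-only than WT-only peaks, as did 46.6% of the windows of all 21887 coding genes, while 41.3% had more WT-only peaks. The median share that Irx5KO-only peaks took of the genotype-only peaks was 75% over the 5 windows and 50% over all coding gene windows. The 5 windows overlap in part and are not independent.

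The direction did not hold in the upper ranks. Among the peaks in the upper 50% of their list, set against the whole other list, the locus held 7 Irx5KO-only of 61 Irx5KO peaks and 10 WT-only of 65 WT peaks. The share was 11.5% (5.67 to 21.8) in Irx5KO, where 3.46% of all peaks of those ranks were Irx5KO-only. It was 15.4% (8.58 to 26.1) in WT, where 4.59% were WT-only. Irx5KO-only peaks were then 41.2% of the genotype-only peaks of the locus, near the 42.3% of the whole series. Of the 20 Irx5KO peaks in the highest 20% by score all were shared, and of the 20 WT peaks 19 were.

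The locus held more low-scored peaks in the Irx5KO list. Of the 175 Irx5KO peaks 69 lay in the lowest 20% of that list, and of the 130 WT peaks 26 lay in the lowest 20% of theirs. Median rank in the locus was 32.2% in Irx5KO and 50.3% in WT. Had the peaks of each score decile been genotype-only at the rate of that decile in the whole series, the locus would have had 60.2 Irx5KO-only and 36.2 WT-only peaks, where 77 and 33 were listed. For the Fto window the numbers at that rate were 18.9 and 10.1, where 24 and 7 were listed, and for the Irx5 window 8.13 and 3.61, where 11 and 3 were listed. For the Irx3 window they were 4.01 and 1.88, where 6 and 2 were listed. For the Rpgrip1l window they were 3.23 and 3.20, where 2 and 1 were listed. The Iroquois A cluster had 48.8 Irx5KO-only and 67.3 WT-only peaks at that rate, where 63 and 64 were listed, so more Irx5KO-only peaks than at the rate of their scores were also listed there. Low-scored peaks were more often genotype-only over the whole series, so these numbers cannot apportion the distance from the series-wide share. The part of the score ranks in that distance was not tested. Depth and signal per sample are not in the lists, and their part in these counts was not tested.

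**Figure D4:**
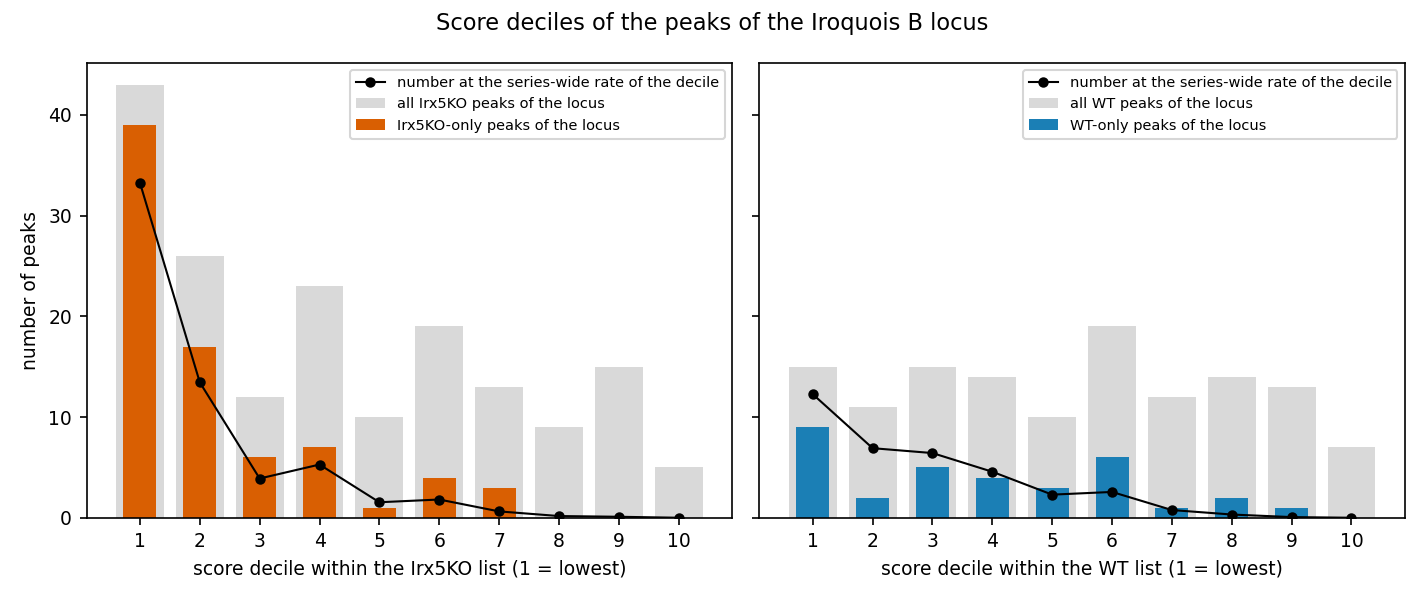
Number of peaks of the locus by score decile within each list (1 is the lowest), Irx5KO left and WT right; grey bars are all peaks, coloured bars genotype-only peaks, and the line is the number at the series-wide rate of each decile. In Irx5KO the 2 lowest deciles held 43 and 26 peaks, with 39 and 17 Irx5KO-only; in WT they held 15 and 11, with 9 and 2 WT-only.

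Shared peaks of the locus lay in nearly the same place in both lists. They formed 98 overlapping pairs with a median of 345 bp in common, and their lower and upper borders were a median of 40 and 45 bp apart. The deposited point sources were a median of 55 bp apart. Of the pairs 45 were wider in Irx5KO, 48 were wider in WT and 5 were equal, with a median difference of 0 bp. Genotype-only peaks were narrow, with a median of 250 bp in Irx5KO and in WT, against 465 and 410 bp for the shared peaks. Over the whole series the medians were 250 bp in both lists for genotype-only and 500 bp for shared peaks, so this holds for the lists in general. Their median distance to the nearest peak of the other list was 2.9 kb for Irx5KO-only and 3.77 kb for WT-only peaks, against 1.42 and 1.35 kb over the series, where peaks are denser. Of the Irx5KO-only peaks 13 of 77 (16.9%) lay within 500 bp of a WT peak, and of the WT-only peaks 6 of 33 (18.2%) lay as near to an Irx5KO peak, against 27.5% and 28.3% over the series.

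The locus was sparse in peaks. It held 11.4 Irx5KO and 8.48 WT peaks per 100 kb, against medians of 17 and 17.8 over 1767 tiles of 1.5 Mb that cover the standard chromosomes. Peaks covered 95020 bp or 6.19% of the locus in Irx5KO (mean width 543 bp) and 77491 bp or 5.05% in WT (mean width 597 bp), with 62440 bp common to both, against medians of 13.9% and 14.1% per tile. Of the 1732 tiles with at least 50 Irx5KO peaks, 0.982% had a share of Irx5KO-only peaks, out of the genotype-only ones, as high as the 70.0% of the locus, and 2.68% did of the 149 among them that were no denser in Irx5KO peaks than the locus. In these sparse tiles the median share was 52.5%, against 44.3% over the 1732 tiles. Among the 12966 coding gene windows with at least 10 genotype-only peaks, 5.71% had a share as high as Irx5, 5.92% as high as Fto and 39.9% as high as Irx6. By difference in number, 23 of the 21887 windows, that of Fto included, had an excess of Irx5KO-only peaks as large as the 17 of Fto, whose window is long. These ranks describe the lists and are not tests.

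**Figure D5:**
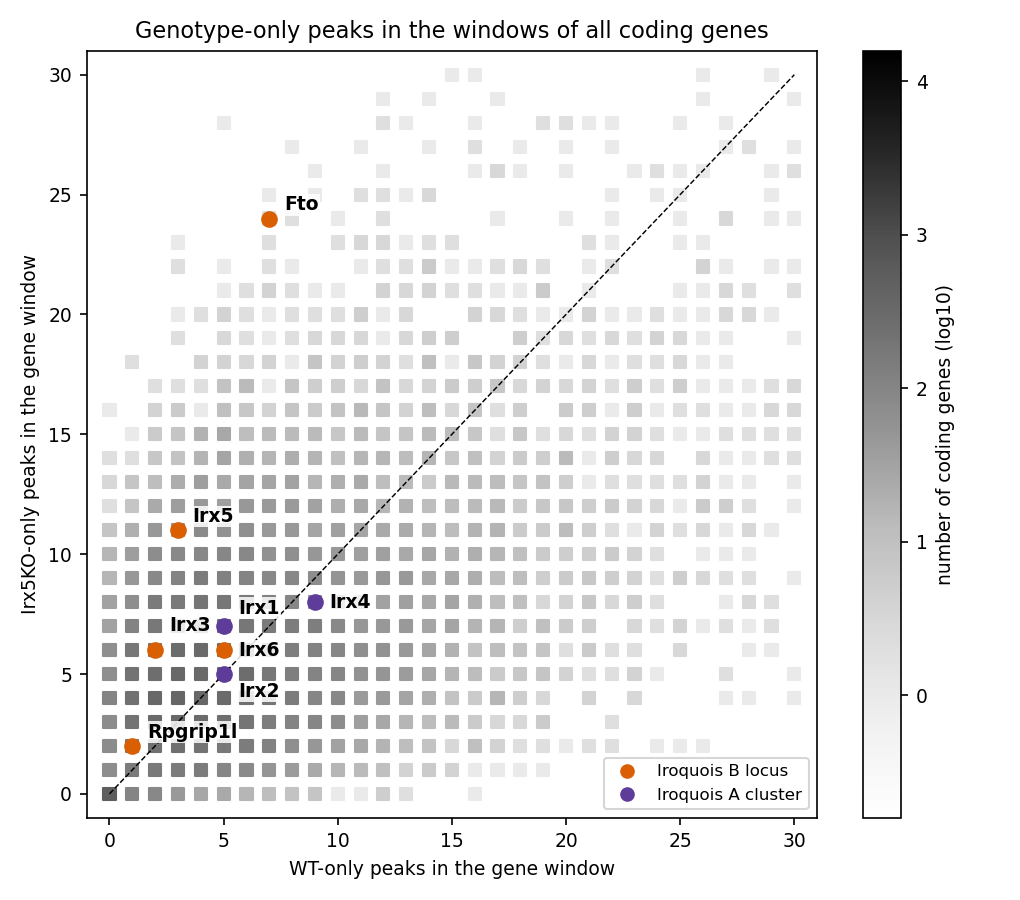
Irx5KO-only against WT-only peaks in the windows of all coding genes, with grey squares shaded by the number of genes (log10) and circles for the genes of both Iroquois clusters; the dashed line marks equal numbers and 328 genes lie outside the axes. Fto (24 and 7) and Irx5 (11 and 3) lie above the line, and Irx1, Irx2, Irx4 and Irx6 lie on or near it.

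The Iroquois A cluster on chromosome 13, with Irx1, Irx2 and Irx4, is the most similar locus of the genome in its genes. From 50 kb below to 50 kb above that cluster the Irx5KO list held 194 peaks, of which 63 were Irx5KO-only, or 32.5% (26.3 to 39.3) against 21.8% of all Irx5KO peaks. The WT list held 200 peaks, of which 64 were WT-only, or 32.0% (25.9 to 38.8) against 26.6% of all WT peaks. Irx5KO-only peaks were 49.6% (41.05 to 58.2) of its genotype-only peaks. The Irx1 window held 7 Irx5KO-only and 5 WT-only peaks, that of Irx2 5 and 5, and that of Irx4 8 and 9. Both genotypes had a gene-end peak at Irx1, Irx2 and Irx4. With the better-scored 50% of each list, Irx1 had one in Irx5KO only, and Irx2 and Irx4 had one in neither, with no share of all coding genes to set beside this. The difference between the clusters was not tested, since each has 1 list per genotype.

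Related genes were counted at their ends as well. Of 18 TALE homeobox genes, which include all 6 Iroquois genes, 17 had peaks at a gene end in both genotypes and 1, Meis3, in neither. Of 17 ciliary transition zone genes, Rpgrip1l itself among them, 16 had one in both. Of 17 genes of AlkB demethylases and m6A methylation, Fto itself among them, 16 had one in both. Mettl3, the m6A methyltransferase, had one in WT only. These counts stand beside the 75.2% of all coding genes marked in both. By window, Irx5KO-only peaks outnumbered WT-only peaks at 13 of the TALE genes, 9 of the transition zone genes and 10 of the AlkB and m6A genes, and WT-only peaks were more at 4, 8 and 6. The 5 members of the locus are counted in these lists, each with more Irx5KO-only peaks, so the lists are not separate from the locus. Of all coding gene windows, 46.6% had more Irx5KO-only and 41.3% more WT-only peaks.

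Markers of the sorted cells were checked in the same way. Both genotypes had a gene-end peak at all 10 HFSC genes examined (Cd34, Krt15, Lgr5, Sox9, Lhx2, Nfatc1, Tcf7l1, Itga6, Krt5 and Krt14). In the upper 50% of the lists 1 kept it in both, 3 in Irx5KO only and 6 in neither. For that threshold no share of all coding genes is given here. By window, Irx5KO-only peaks outnumbered WT-only peaks at 9 of the 10 HFSC genes. Their median share of the genotype-only peaks was 69.4% over these windows, beside a median of 75% over the 5 windows of the locus. With its peaks pooled, the share of the locus was 70.0%. Irx5KO-only peaks were also more at 4 of 5 epidermal, 1 of 3 immune, 1 of 3 endothelial, 2 of 3 fibroblast and 3 of 3 melanocyte markers. Of the windows of all coding genes, 46.6% had more Irx5KO-only and 41.3% more WT-only peaks, and the median share was 50%. At their gene ends, 3 of the 5 markers of interfollicular and differentiated epidermis had a peak in the Irx5KO list alone. A further 2 had one in both lists, among them Ly6a, a gene of the antigen sorted against. Of 12 markers of immune, endothelial, fibroblast and melanocyte cells, 5 had one in WT only, 1 in Irx5KO only, 4 in both and 2 in neither. Over all coding genes 6.07% had one in the Irx5KO list alone, 3.99% in the WT list alone and 75.2% in both. In the upper 50% of the lists Ly6a had a gene-end peak in both and the other 4 epidermal markers in neither. At that threshold 1 melanocyte marker had one in both, and 1 endothelial and 1 melanocyte marker had one in WT only. The rest of the 12 had one in neither. The part of other cell types in the counts of the locus was not tested.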

How the data were processed

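ATAC-seq peaks of HFSC labelled Irx5KO or WT were used as deposited, in 1 list per genotype that belongs, per the labels, to both of its samples. Per the submitters' processing notes the build was mm10, and Bowtie2, Genrich 0.6, cutadapt 2.9, FastQC, ChIPseeker 1.24.0 and deepTools 3.4.2 were named as tools. Their roles and settings, any Tn5 shift and the treatment of duplicate and multiply mapped reads were not given, and read depth per sample is unknown. The lists, per the file headers in narrowPeak format, hold a peak score set by the authors, of at least 50 and on a scale not stated, and other values in the form of a point source offset. The deposited signal, p-value and q-value columns hold 0 in every entry and were not used. Borders fall on multiples of 10 bp except for 3 in Irx5KO and 4 in WT, with no peak under 200 bp. Of the Irx5KO and WT entries, 1188 and 1733 on unplaced contigs were left out.

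Gene positions came from a RefSeq table of GRCm38.p6, the assembly of mm10, which gives no exons. All 52 genes of the 3 lists of related genes and all 27 markers were matched. Named were the 5 members, the Iroquois A genes, list genes marked at an end in 1 genotype only or in neither, the peaks at member ends, and the 3 highest-scored, 3 highest-scored genotype-only and widest peaks of each list. A gene that this rule takes is not reported here. Other named peaks were chosen after their values were seen, as was the search for the ZNF143 motif. The members and lists were chosen with earlier results of these data known. Overlap counts equalled those of bedtools 2.31.1, and the code was tested on simulated data. Python 3.11.15, numpy 2.4.6, pandas 2.3.3, scipy 1.17.1 and matplotlib 3.10.9 were used. Alternatives changed the score threshold, the list length, the peak width, the overlap rule, the flank and the gene-end window.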

Additional observations from a re-analysis of the deposited data

How the results depend on the processing

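No paired analysis was possible because each genotype has 1 pooled list, and leaving out a replicate was not possible for the same reason. Equal list lengths, a limit of 2000 bp on width, sharing on 50% of the peak or within 500 bp, and, added after seeing the data, leaving out the Fto gene body left more Irx5KO-only than WT-only peaks in the locus, and in the Irx5 window, the Fto window and the span where these were applied. The score threshold did not. In the upper 50% by score against the whole other list, the locus held 7 Irx5KO-only and 10 WT-only peaks (41.2% Irx5KO-only), the Irx5 window 0 and 1 (0%), the span from Irx3 to Irx6 6 and 8 (42.9%), and the Fto window 1 and 1 (50%). Against the upper 50% of the other list these were 13 and 17 (43.3%) for the locus, 0 and 1 (0%) for Irx5, 10 and 12 (45.5%) for the span, and 2 and 3 (40%) for Fto. A threshold leaves fewer peaks by its construction. The cause of the changed direction was not tested. At Irx5 a flank of 10 kb left 8 Irx5KO-only and 0 WT-only peaks (100%), and one of 100 kb gave 13 and 6 (68.4%). For the locus these flanks gave 71.0% and 67.8%. All 5 members kept a gene-end peak in both lists with windows of 3000 bp, and 4 of them did in the upper 50%. Shares of all coding genes at these settings are not given here. Peaks of the upper 50% covered 55.2 kb in Irx5KO and 55.2 kb in WT. The Fto window alternatives were also added after seeing the data. The number and rank of peaks are limited by a depth that is not known here.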

Other observations

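Outside the 2 stretches, the 30.1 kb between the Fto and Irx3 windows (91718434 to 91748510) held 4 Irx5KO peaks, all shared, and 5 WT peaks, of which 2 were WT-only. The whole interval from the end of Fto to Irx3 held 1 Irx5KO-only of 11 Irx5KO peaks and 3 WT-only of 12 WT peaks.

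Of the 18 noncoding genes and pseudogenes annotated in the locus, 6 had a peak at an end in both lists and 7 had none. A further 3 had one in the Irx5KO list alone and 2 in the WT list alone. Of all 28056 genes not annotated as protein-coding, 55.6% had one in both lists, 7.09% in Irx5KO alone, 7.13% in WT alone and 30.2% in neither. Those marked in Irx5KO only were LOC115486949, Gm36670 and Gm28516, which lie between 91974263 and 92038438 and held 1, 2 and 1 Irx5KO-only peaks with no WT peak in their bodies. Those marked in WT only were Gm39223, inside Irx3os, and Gm24254. Irx3os held 9 Irx5KO peaks, of which 5 were Irx5KO-only, and 6 WT peaks, of which 2 were WT-only. Crnde held 4 and 3 peaks, with 2 Irx5KO-only and 1 WT-only. These genes were chosen by position, with no list fixed for them.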
